A study of Mus musculus with 12 samples.

Results

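The inflammation miRNAs mmu-miR-155-5p, mmu-miR-146a-5p, mmu-miR-142a-3p, mmu-miR-142a-5p, mmu-miR-132-3p and mmu-miR-212-3p, named below without the species prefix, were followed in the mouse Lewis lung carcinoma line LLC1 with and without ionizing radiation. They were chosen by name, as the 6 array entries that carry these names among 576 entries, and 5 of them were among the 118 miRNAs tested. The 4 groups, on 3 Agilent 1-colour miRNA arrays each, were untreated cells (control), cells irradiated once with 2 Gy, cells irradiated once with 10 Gy, and cells whose 10 Gy came as 5 doses of 2 Gy (5x2 Gy). All groups are the same cell line in culture with no host or stromal cells. RNA of the irradiated groups was taken 4 h after irradiation, and control has no such time. The spacing of the 5 doses is not given here, so time since the first dose cannot be compared between groups. Arrays of a group are labelled as biological replicates with no separate cultures or days named, so the p-values measure the spread between these samples.

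MicroRNAs are short RNAs that pair with messenger RNAs, mainly through bases 2 to 8 of the mature strand (the seed), and lower their translation or stability. MiR-155 is processed from a host transcript that NF-kappaB and AP-1 switch on in activated macrophages and lymphocytes, and it targets inhibitors of cytokine signalling. MiR-146a is an NF-kappaB target that lowers TRAF6 and IRAK1, adaptors of Toll-like receptor signalling, and so acts as a brake. MiR-142 is known as a miRNA of blood-forming cells, with both arms of its hairpin in use, and miR-132 and miR-212 come from 1 cluster that CREB switches on in neurons and that is also induced in activated myeloid cells.

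The mature sequences below, from RefSeq with GRCm38.p6 coordinates, show which members share a seed and can therefore share targets. Bases 2 to 8 are in capitals. All 6 members were matched by name.
miR-155-5p: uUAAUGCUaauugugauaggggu
miR-146a-5p: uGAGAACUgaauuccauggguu
miR-146b-5p: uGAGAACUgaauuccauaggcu
miR-142a-5p: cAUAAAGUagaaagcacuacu
miR-142a-3p: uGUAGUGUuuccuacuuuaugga
miR-132-3p: uAACAGUCuacagccauggucg
miR-212-3p: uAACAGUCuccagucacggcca
MiR-132-3p and miR-212-3p have 1 seed and are identical at 17 of 22 positions, counted from the 5′ end. They differ by A10C, C14U, U17C, U20C and G22A, with the base of miR-132-3p first. MiR-146a-5p shares its seed with miR-146b-5p, which is not a member, and the strands differ by G18A and U21C with the base of miR-146a-5p first. Among the 466 of 576 array entries matched to a RefSeq mature sequence, no other shares a seed with miR-155-5p or with either miR-142a arm. Cross-hybridisation between such similar strands was not tested.

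MiR-155-5p lies at chr16:84714143-84714165 on the plus strand, within the long noncoding RNA gene Mir155hg. MiR-212-3p at chr11:75173443-75173464 and miR-132-3p at chr11:75173723-75173744, both on the plus strand, are separated by 258 bases, and Mir212 and Mir132 are neighbouring genes. MiR-146a-5p lies at chr11:43374435-43374456 on the minus strand, with no overlapping gene in that annotation. The miR-142a arms are at chr11:87756867-87756887 (5p) and chr11:87756903-87756925 (3p) on the plus strand. Their hairpin, with both arms in capitals, shows that 1 transcript carries both.
Mir142: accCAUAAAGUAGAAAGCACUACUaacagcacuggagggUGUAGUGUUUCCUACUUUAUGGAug

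Levels are log2 values relative to the 75th percentile of the probes detected on all arrays, with a floor of -4.06 that corresponds to 5.98% of that percentile. That percentile, taken as array brightness, ran from 110.5 to 703 intensity units in control, from 316 to 897 in the 2 Gy group, from 307 to 867 in the 10 Gy group and from 1004 to 1102 in the 5x2 Gy group. Control, 2 Gy and 10 Gy replicates 1 and 2 lay on slide 1, while 10 Gy replicate 3 shared slide 2 with the whole 5x2 Gy group, so 5x2 Gy shares no slide with control or 2 Gy. Values with slide as a block therefore link those groups only through the 10 Gy group, which has 1 array on slide 2. A miRNA counted as well above background on an array when over 0.5 of the spots of 1 of its probes were. The scanner software's own call, which combines a miRNA's probes, was a second measure. Depth on arrays is limited by brightness and by the number of arrays, and 0 spots were saturated.

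MiR-142a-3p, the 3p arm of the blood-cell hairpin, was the one member well above background on every array. All spots of both its probes passed on 12 of 12 arrays. Its level was -0.86, -0.55 and -1.27 in control, -0.66, -0.89 and -0.80 after 2 Gy, -0.76, -0.93 and -1.32 after 10 Gy, and -1.29, -0.84 and -1.08 after 5x2 Gy. The 4 groups overlapped throughout, and control replicate 3 was nearly as low as the lowest irradiated arrays. The group means were ordered 2 Gy (-0.78 ± 0.11), control (-0.89 ± 0.36), 10 Gy (-1.0 ± 0.29) and 5x2 Gy (-1.07 ± 0.23; SD, n = 3 each), and no neighbours in that order differed by more than their spread. The difference was 0.11 for 2 Gy minus control (95% interval -0.37 to 0.59, limma adjusted p = 0.981), -0.11 for 10 Gy minus control (-0.59 to 0.37, limma adjusted p = 0.889) and -0.18 for 5x2 Gy minus control (-0.66 to 0.30, limma adjusted p = 0.718). As folds, the last of these intervals runs from 0.634 to 1.23, so a change of either sign within it was not detectable with 3 arrays a group. For 5x2 Gy minus 10 Gy, the same total dose in fractions against at once, the difference was -0.07 (-0.55 to 0.41, limma adjusted p = 1).

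The other arm of the same hairpin, miR-142a-5p, was near the limit of detection. It was well above background on 6 of 12 arrays: control replicate 3, 2 Gy replicate 2, 10 Gy replicate 3 and the 3 arrays of 5x2 Gy. Those 6 were also the 6 brightest arrays. The scanner software called it on 9 arrays. Its level was -3.76, -4.06 and -3.89 in control, -4.06, -3.56 and -4.06 after 2 Gy, -4.06 on each 10 Gy array, and -4.06, -3.68 and -3.98 after 5x2 Gy. The groups therefore overlapped at the floor, and the differences were 0.01 for 2 Gy minus control (95% interval -0.34 to 0.36), -0.16 for 10 Gy minus control (-0.51 to 0.19) and 0.00 for 5x2 Gy minus control (-0.35 to 0.34), with limma adjusted p of 1, 0.617 and 1 in that order. Values set to the floor understate the spread of this arm and narrow these intervals. With a floor 4 times lower the differences were 0.37 (-0.51 to 1.25), -0.09 (-0.96 to 0.79) and 0.32 (-0.56 to 1.2) in the same order, and none passed.

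MiR-142a-3p was not accompanied by the other blood cell miRNAs looked for. MiR-223-3p and miR-150-5p (myeloid and lymphoid cells) and miR-144-3p, miR-451a and miR-486a-5p (red cell lineage) were well above background on 0 of 12 arrays, 0 of 5 by the scanner software as well. Their summed scaled signal ran from -6.66 to -1.26% of the 75th percentile in control, -4.75 to -0.391% after 2 Gy, -5.04 to -0.698% after the single 10 Gy and -0.583 to -0.252% after 5x2 Gy, all below 0. Epithelial markers, the miR-200 family with miR-205-5p and miR-203-3p, were also on 0 of 12 arrays (0 of 7 entries), although LLC1 is named a carcinoma line. Of 6 fibroblast and endothelial markers on the array, 5 were well above background on at least 1 array and 3 on all 12, namely miR-199a-3p, miR-199a-5p and miR-214-3p. The others were miR-143-3p on 7 arrays, the endothelial miR-126a-3p on 3 and miR-145a-5p on 0. In RNA from bulk cells, fewer cells of a type and less RNA per cell cannot be told apart.

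**Figure D1:**
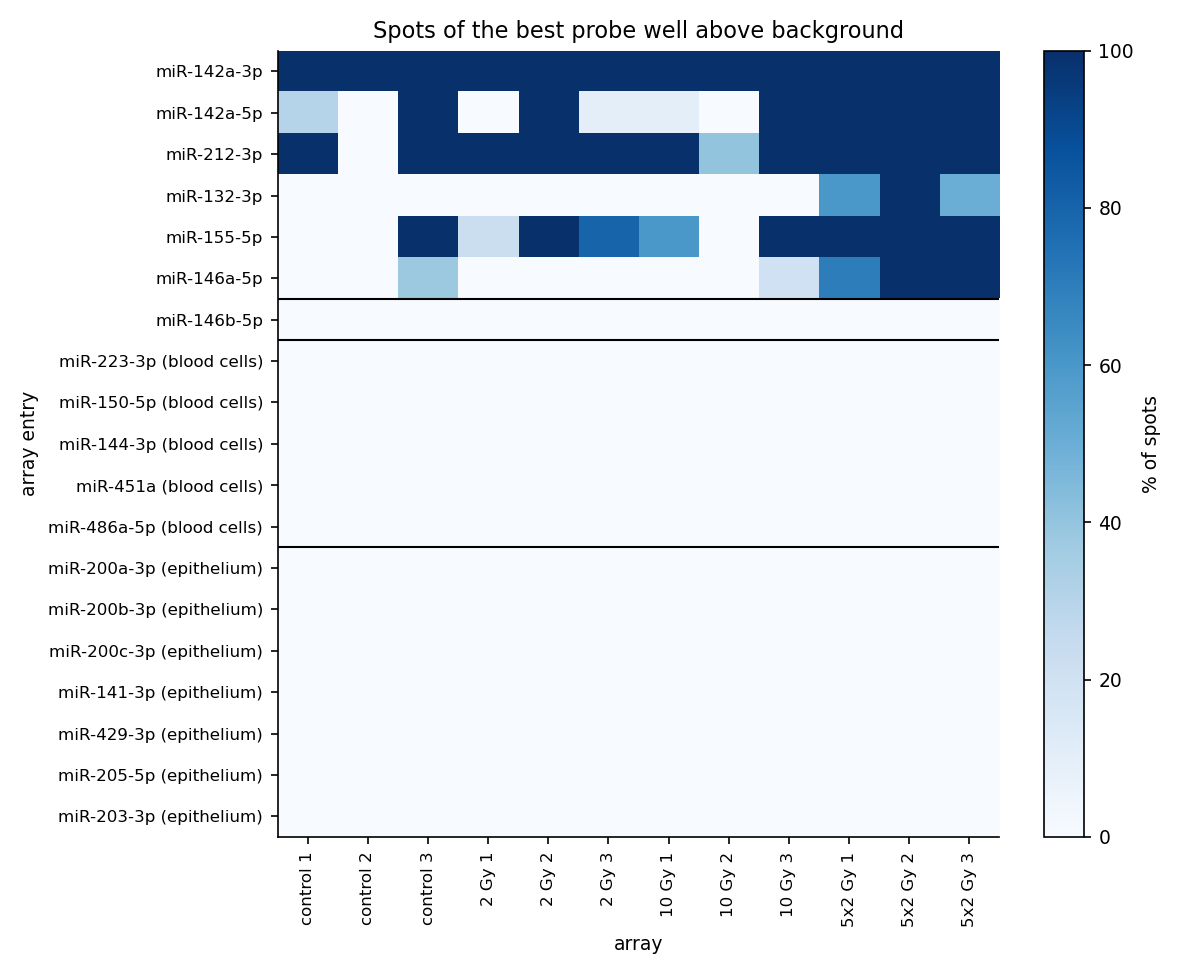
Share of the spots of each entry's best probe that were well above background (colour, in %) for the 6 members, miR-146b-5p, 5 blood cell and 7 epithelial markers (down) on the 12 arrays (across, control to 5x2 Gy). MiR-142a-3p is at 100% on every array, each other member was well above background on more 5x2 Gy arrays than control arrays, and miR-146b-5p and all markers are at 0. Of all 576 entries, 75, 48 and 99 were well above background in control and 120, 137 and 124 after 5x2 Gy, on the brightest arrays.

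MiR-212-3p, from the CREB-responsive cluster, was well above background on 10 of 12 arrays and was called by the scanner software on 12. Its level was -2.88, -3.26 and -3.30 in control, -3.35, -3.06 and -3.45 after 2 Gy, -3.43, -3.50 and -2.85 after 10 Gy, and -2.80, -2.97 and -2.92 after 5x2 Gy. The 3 arrays of 5x2 Gy lay close together and were matched by control replicate 1 and 10 Gy replicate 3. The order of means was 5x2 Gy (-2.90 ± 0.09), control (-3.15 ± 0.23), 10 Gy (-3.26 ± 0.36) and 2 Gy (-3.29 ± 0.20; SD, n = 3 each).

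No difference of miR-212-3p passed the test. It was -0.14 for 2 Gy minus control (95% interval -0.57 to 0.30, limma adjusted p = 0.91) and -0.11 for 10 Gy minus control (-0.55 to 0.32, limma adjusted p = 0.871). For 5x2 Gy minus control it was 0.25, or 1.19-fold (-0.19 to 0.68, limma adjusted p = 0.438), and with slide as a block -0.36 (limma adjusted p = 0.594). For 5x2 Gy minus 2 Gy it was 0.39, or 1.31-fold (-0.05 to 0.82, limma adjusted p = 0.303), the one comparison in which a member's groups did not overlap. With slide as a block that difference was -0.23. For 5x2 Gy minus 10 Gy it was 0.36 (-0.07 to 0.79, limma adjusted p = 0.419). Without 10 Gy replicate 3 it was 0.40 and passed (limma adjusted p = 0.0497), whereas within slide 2, against that 1 array alone, it was -0.05. The dimmer probe was floored on control replicates 2 and 3, 2 Gy replicates 1 and 3, and 10 Gy replicates 1 and 2. On the 5x2 Gy arrays it lay above the floor, which thus shrinks the 0.25, 0.39 and 0.36 above. With the brighter probe alone they were 0.29, 0.52 and 0.49, with a floor 4 times lower 0.59, 0.64 and 0.65, and none passed. On control replicate 2, 0 spots of either probe were well above background. All 4 arrays of slide 2 gave 22.6 to 25.6% of the 75th percentile on the brighter probe of miR-212-3p, against 13.0 to 23.2% on the 8 arrays of slide 1. The part of slide and brightness in this was not tested.

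Its cluster partner miR-132-3p was at or near background. It was well above background on 2 arrays, 5x2 Gy replicates 1 and 2, and the scanner software called it on 4, which added 5x2 Gy replicate 3 and 10 Gy replicate 3. It sat at the floor on all 12 arrays and was not tested. Its brighter probe gave 0.783, -3.12 and 1.57% of the 75th percentile in control, -0.0294, 1.89 and 0.345% after 2 Gy, 1.14, 0.132 and 1.90% after 10 Gy, and 2.46, 2.35 and 2.27% after 5x2 Gy. The 5x2 Gy arrays were thus the highest, on the brightest arrays of the series. No fold is given, because 5x2 Gy lay below the dimmest signals that still passed background on the control arrays. Its mean over both probes, the dimmer of which gave 0.666 to 1.01%, was at -2.82 log2 units against them.

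MiR-155-5p, the miRNA of activated macrophages and lymphocytes, gave a low signal in untreated cells and after every dose. It was well above background on 8 of 12 arrays (1, 2, 2 and 3 of 3 from control to 5x2 Gy), and the scanner software called it on 11, all except control replicate 2. One of its 2 probes stayed below the floor on all arrays. The brighter probe gave 7.09, 13.0 and 8.95% of the 75th percentile in control, 8.56, 6.95 and 10.1% after 2 Gy, 8.89, 9.62 and 9.25% after 10 Gy, and 8.94, 8.95 and 9.10% after 5x2 Gy. The value of 13.0% came from control replicate 2, the dimmest array, where 0 of the probe's spots were well above background. Of the other 2 control arrays, at 7.09 and 8.95%, replicate 3 alone was well above background, and the 9 irradiated arrays lay at 6.95 to 10.1%.

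The level of miR-155-5p averaged -3.74 ± 0.22 in control, -3.82 ± 0.13 after 2 Gy, -3.75 ± 0.03 after the single 10 Gy and -3.77 ± 0.01 after 5x2 Gy (SD, n = 3 each). The difference was -0.08 for 2 Gy minus control (95% interval -0.31 to 0.16, limma adjusted p = 0.91), -0.01 for 10 Gy minus control (-0.25 to 0.23, limma adjusted p = 1) and -0.03 for 5x2 Gy minus control (-0.27 to 0.21, limma adjusted p = 1). It was -0.02 for 5x2 Gy minus 10 Gy (-0.26 to 0.22, limma adjusted p = 1). The floored probe shrinks these differences and their intervals on the log2 scale. With the brighter probe alone the differences from control were -0.15 (-0.63 to 0.32), -0.02 (-0.49 to 0.45) and -0.06 (-0.53 to 0.41) from 2 Gy to 5x2 Gy, and none passed.

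MiR-146a-5p, the NF-kappaB-induced brake on Toll-like receptor signalling, was close to the limit of detection. It was well above background on the 3 arrays of 5x2 Gy and on 0 of 9 others, and the scanner software called it on 5, adding control replicate 3 and 10 Gy replicate 3. It entered the test through the 5x2 Gy arrays alone. The brighter probe gave 2.18, 1.41 and 3.84% of the 75th percentile in control, 1.15, 2.06 and 3.22% after 2 Gy, 2.89, 2.37 and 2.01% after 10 Gy, and 2.73, 3.90 and 3.35% after 5x2 Gy. The 5x2 Gy values overlapped those of every other group, although their arrays were the brightest. As the miRNA sat at the floor on all 12 arrays, its fitted differences are 0 by construction, and no fold is given, because the mean of 5x2 Gy, set against the dimmest signals that still passed background on the control arrays, was at -1.56 log2 units. With a floor 4 times lower the difference for 5x2 Gy minus control was 0.50, and with the values of the authors' deposited table it was 1.75, where the median of all tested miRNAs was 1.68. No test is read from these differences, because detection on the 5x2 Gy arrays decided that the miRNA was included. MiR-146b-5p, with the same seed, was on 0 of 12 arrays.

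**Figure D2:**
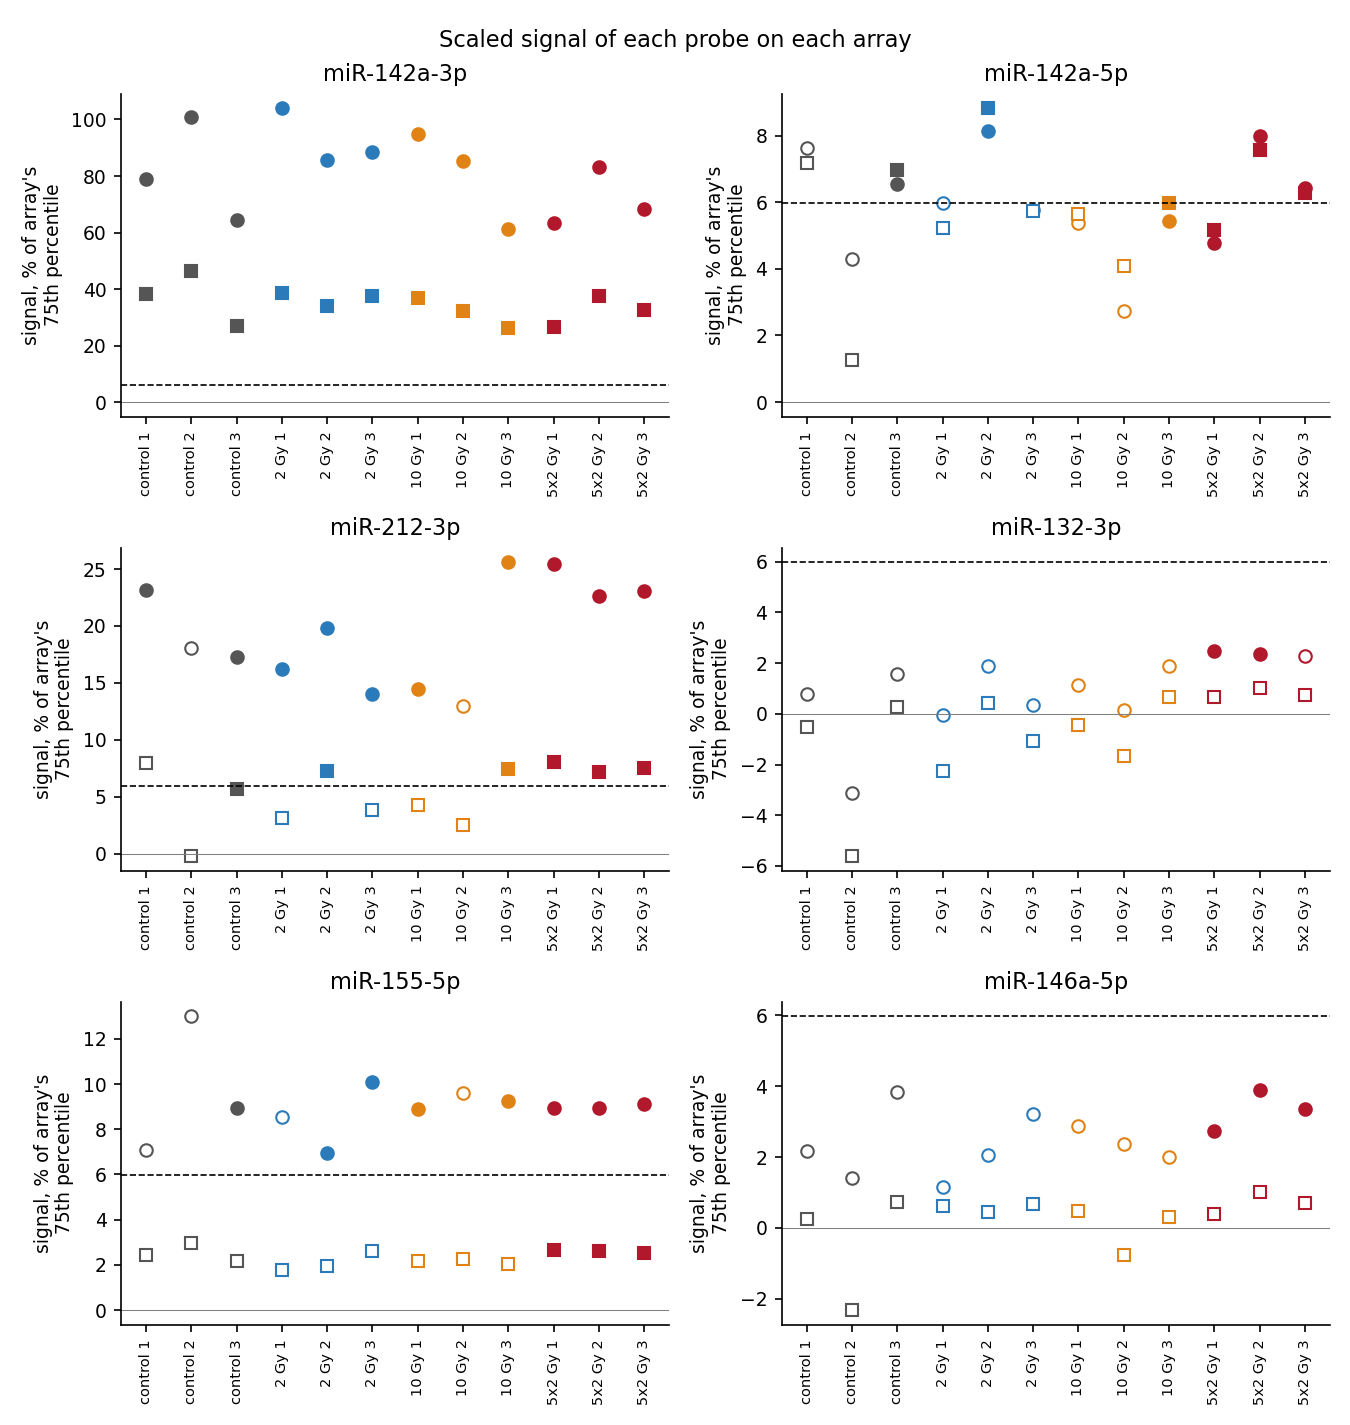
Scaled signal of both probes of each member (in % of the array's 75th percentile, linear axes that differ between panels) on each array, with colours for the groups from control to 5x2 Gy. Circles and squares are the 2 probes, filled where over 0.5 of the spots were well above background, and the dashed line is the floor at 5.98%. Both probes of miR-142a-3p are filled on every array, and those of miR-132-3p and miR-146a-5p lie below the floor on all 12.

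Read over the members, 0 of the 5 tested passed in any of the 6 comparisons, and 0 had an unadjusted limma p under 0.05. One of the 5, miR-146a-5p, could not pass, since its values were all at the floor. The same held for 19 of the 118 tested miRNAs, miR-146a-5p included, and the shares below count them. Among all 118 tested miRNAs, limma called 0% for 2 Gy minus control, 0.847% for 10 Gy minus control, 12.7% for 5x2 Gy minus control, 0% for 10 Gy minus 2 Gy, 2.54% for 5x2 Gy minus 10 Gy and 4.24% for 5x2 Gy minus 2 Gy. At an unadjusted p under 0.05 these counts were 11, 24, 36, 2, 18 and 25 miRNAs in the same order. The groups of 1 of the 5 members (miR-212-3p) did not overlap for 5x2 Gy minus 2 Gy, where those of 30.5% of all tested miRNAs did not. In the other comparisons this held for 0 of 5 members, beside 6.78% of all tested miRNAs for 2 Gy minus control, 15.3% for 10 Gy minus control, 33.1% for 5x2 Gy minus control, 5.93% for 10 Gy minus 2 Gy and 26.3% for 5x2 Gy minus 10 Gy. With so few members, a count of 0 called is near the 12.7% that limma called for 5x2 Gy minus control. No such reading is made of the overlap counts, where miR-146a-5p, at the floor throughout, could not count either. What varied between arrays was how many members were well above background: 2, 1 and 4 of 6 in control, 2, 4 and 3 after 2 Gy, 3, 1 and 4 after 10 Gy, and 6, 6 and 5 after 5x2 Gy. The number of all 576 entries well above background varied in the same way, with 75, 48 and 99 in control, 67, 110 and 76 after 2 Gy, 73, 62 and 115 after 10 Gy, and 120, 137 and 124 after 5x2 Gy. The members' count was 4 or more on the 6 brightest arrays, those at 703 intensity units and over, and 1 to 3 on the other 6. The part of brightness in this was not tested.

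**Figure D3:**
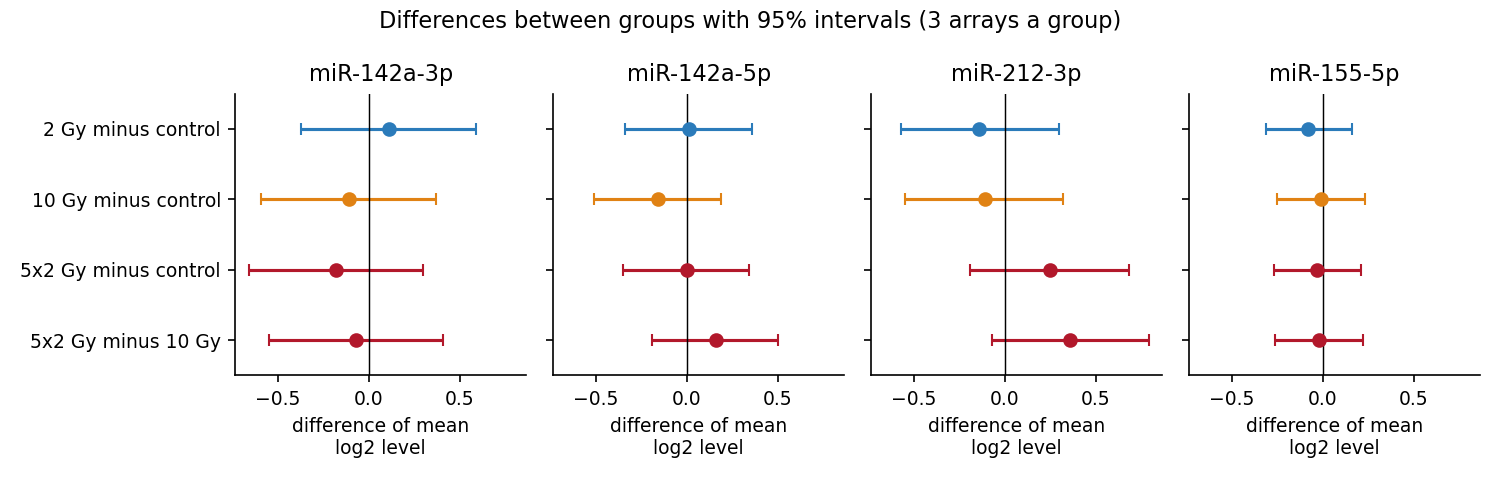
Difference of mean log2 level (points) with 95% interval (bars) for miR-142a-3p, miR-142a-5p, miR-212-3p and miR-155-5p in 4 comparisons, 3 arrays a group. Every interval includes 0, and the one that reaches furthest above 0 is miR-212-3p for 5x2 Gy minus 10 Gy, from -0.07 to 0.79.

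**Figure D4:**
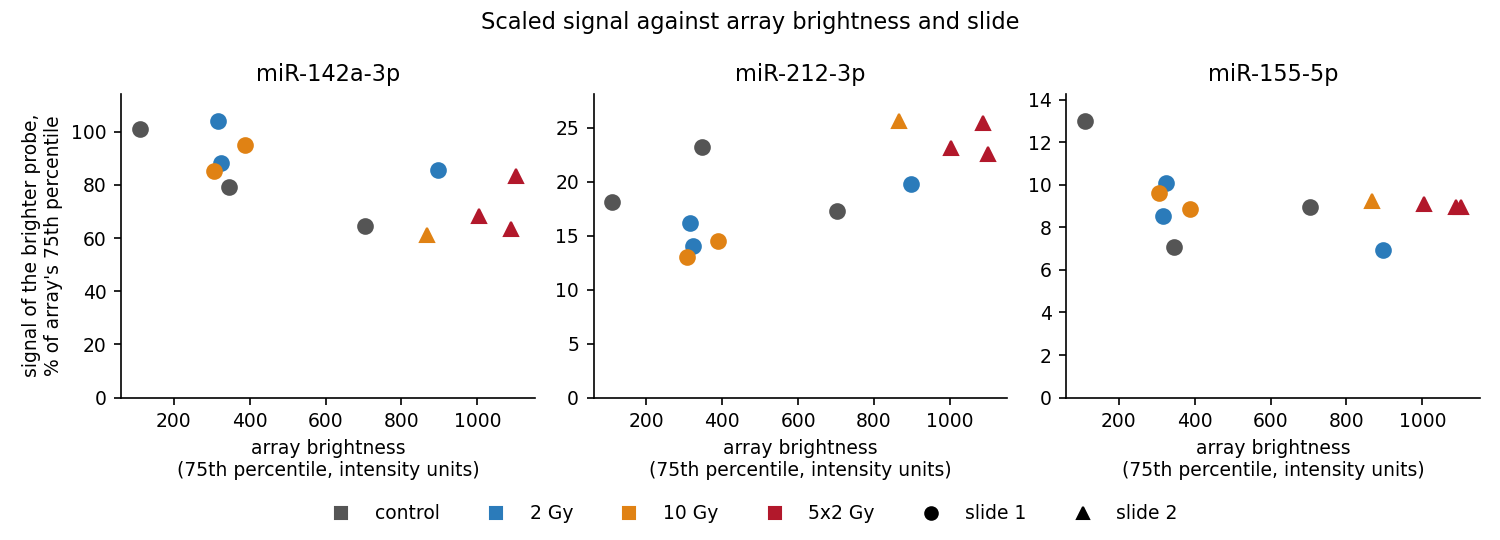
Scaled signal of the brighter probe (in % of the array's 75th percentile, axes from 0) against array brightness (75th percentile, intensity units) for miR-142a-3p, miR-212-3p and miR-155-5p, with colours for groups, circles for slide 1 and triangles for slide 2. The 4 arrays of slide 2 give 22.6 to 25.6% for miR-212-3p. The point for miR-155-5p on the dimmest array, control replicate 2, was not well above background.

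Other miRNAs linked to inflammation were read from a list of 30 names, of which 24 were on the array, 13 well above background on at least 1 array, 7 on all 12, and 12 tested. After 5x2 Gy 2 of the 12 were higher than in control and 0 lower, a share near the 12.7% called among all tested miRNAs. MiR-125a-5p, which targets the NF-kappaB inhibitor TNFAIP3 in human cells, averaged -1.94 after 5x2 Gy and -2.26 in control, a difference of 0.32 (SE 0.05, 1.25-fold, limma adjusted p = 0.00623). Let-7i-5p, which targets Toll-like receptor 4 in human cells, averaged -0.51 after 5x2 Gy and -0.69 in control, a difference of 0.18 (SE 0.05, 1.14-fold, limma adjusted p = 0.0407). MiR-125a-5p was also higher after 5x2 Gy than after 10 Gy (0.29, limma adjusted p = 0.0215) and than after 2 Gy (0.42, limma adjusted p = 0.00152). With slide as a block none of these 4 calls held, with differences of 0.17, 0.07, 0.19 and 0.27. Within slide 2, where 10 Gy has 1 array, the 5x2 Gy minus 10 Gy difference was 0.19. With normexp background correction the 3 differences of miR-125a-5p turned to -0.31, -0.11 and -0.07, and with median scaling that of let-7i-5p turned to -0.03.

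Some of the calls after 5x2 Gy also depended on single arrays. With 1 array left out, the miR-125a-5p difference was 0.30 to 0.34 for 5x2 Gy minus control and 0.37 to 0.45 for 5x2 Gy minus 2 Gy. These calls held in 25 and 22 of 29 alternatives, slide as a block not among them. For 5x2 Gy minus 10 Gy, miR-125a-5p missed the threshold without control replicate 2, 10 Gy replicate 1 or 2, or 5x2 Gy replicate 1 or 2 (limma adjusted p of 0.0571 to 0.119, differences of 0.25 to 0.29). Let-7i-5p missed it without control replicate 1 or 3, any 2 Gy replicate, 10 Gy replicate 2 or any 5x2 Gy replicate (limma adjusted p of 0.0519 to 0.136, differences of 0.14 to 0.21). In the comparisons of 2 Gy and 10 Gy with control, and of 10 Gy with 2 Gy, 0 of 12 passed. The list's median difference from control was 0.03 after either single dose and 0.08 after 5x2 Gy, beside a median of 0 over all tested miRNAs in each. That median includes 19 miRNAs at the floor on all arrays, whose differences are 0 by construction. For 5x2 Gy minus control it was 0.07 over the 99 others, and 0.19 over the 48 well above background on all 12 arrays.

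For the 3 members above the floor on at least 9 of 12 arrays, the tested miRNAs with the most similar profile over the 12 arrays were listed as a description. MiR-142a-3p was most like miR-27a-3p (Pearson r = 0.78), miR-130a-3p (0.76) and miR-7a-5p (0.76). MiR-212-3p was most like miR-16-5p (r = 0.86), miR-31-5p (0.84) and miR-99b-5p (0.83). MiR-155-5p was most like let-7b-5p (r = 0.82), let-7e-5p (0.73) and miR-221-3p (0.72). These are the highest of 70 candidates for each member, and all points share the array's brightness, slide and scaling.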

How the data were processed

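Agilent 1-colour arrays of 12 samples in 4 groups were used. The deposited files give linear intensity values per spot, and the submitters' processing notes name Agilent Feature Extraction 10.7.3.1. The processed signal, per the file headers, is background-subtracted and detrended. RNA was labelled with Cy3 from 100 ng per the labels. The series matrix that the authors deposited holds log2 values, found to equal the log2 processed signal, with a minimum of 1, after adding a shift to each array (-0.27 to 0.51, within 1e-04), with column medians from -0.19 to 1.14 and a mean of 1.98, and served as an alternative.

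Control spots and outlier spots were dropped, spots averaged per probe, and signals divided by the array's 75th percentile, taken over 78 probes found on every array. A floor (the median over arrays of the lowest detected signal) was set before log2, and probes detected on at least 3 arrays were averaged per miRNA. Tests covered the 118 of 576 entries found on each of the 3 arrays of some group. Comparisons used limma 3.58.1 in R 4.3.3 over all 12 arrays with no covariates, two-sided, with Benjamini-Hochberg adjustment over the 118 and a threshold of 0.05. Scripts were tested on simulated data with levels held well above the floor. That test does not cover levels near the floor, such as those of most members. Of the 576 entries, 466 matched RefSeq mature names. The headers name mm9 for the array design, which gives no positions here.

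The members and lists were chosen with earlier results of these data known. Named were the members, list miRNAs that passed, list miRNAs sharing a member's seed or hairpin and well above background on an array, and the 3 most similar miRNAs per member. Exceptions, named as absent or as markers only, are miR-146b-5p and the marker miRNAs. Normexp used the median spot signal, since the files here hold no mean signal. Alternatives covered scaling, background, floor, probe summary, filters, slide, brightness, replicate number, single arrays and the authors' values. The 3 added after seeing the data were slide 2 only, the scanner software's total signal, and leaving out miRNAs at the floor on all arrays.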

Additional observations from a re-analysis of the deposited data

Results flagged for a closer look

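MiR-132-3p enters no comparison above, and its signal by the scanner software is listed for a closer look because it appeared on 4 irradiated arrays and on 0 of 3 control arrays. The software's total signal was 17.8, 17.6 and 15.1 intensity units on the 5x2 Gy arrays and 11 on 10 Gy replicate 3, while the miRNA was not called on the other 8 arrays. These 4 arrays make up slide 2, and 3 of them are the brightest of the series, with the other at 867 units. The part of slide and brightness in this was not tested.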

How the results depend on the processing

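The count of members past the threshold stayed at 0 of those tested in all 6 comparisons under every alternative run except these. Scaling over all probes called 5 for 5x2 Gy minus control, 5 for 5x2 Gy minus 10 Gy and 5 for 5x2 Gy minus 2 Gy, all higher, where the median of all tested miRNAs moved by 1.42, 1.09 and 1.34. No scaling called 3 for 5x2 Gy minus control (median of all 1.41) and the authors' deposited log2 values 4 (median of all 1.68). Of all 118 tested miRNAs, scaling over all probes called 102 for 5x2 Gy minus control, no scaling 86 and the authors' values 84, all higher. The part of this wider shift in the member calls was not tested. MiR-146a-5p is among the 5 and the 4, and was included through the 5x2 Gy arrays alone. Without 10 Gy replicate 3, 1 member (miR-212-3p) passed for 5x2 Gy minus 10 Gy, so that with 1 array left out the count ran from 0 to 1 there and was 0 elsewhere. With the replicate block 0 members passed in any comparison, and the calls over all miRNAs were 10 in place of 15 for 5x2 Gy minus control, 0 in place of 1 for 10 Gy minus control, 2 in place of 3 for 5x2 Gy minus 10 Gy and 3 in place of 5 for 5x2 Gy minus 2 Gy; same-numbered arrays did not deviate together (r of -0.90 to 0.78 over 18 pairs, 6 of them over 0.1), and 1 of 12 arrays correlated best with its own number. Array brightness as a covariate gave 28 calls for 5x2 Gy minus control (21 higher, 7 lower), 26 for 10 Gy minus control (14 higher, 12 lower) and 6 for 2 Gy minus control. For 5x2 Gy minus control, slide as a block gave 1, doubling the floor 7, a floor 4 times lower 25 (3 lower), normexp 2 (both lower), quantile scaling 8 (1 lower), median scaling 4 (1 lower), no filter 6, all-array detection 6, and single arrays left out 6 to 16. With 1 array left out, 10 Gy minus control ran from 0 to 8, the most without control replicate 2, and 5x2 Gy minus 10 Gy from 1 to 10, the most without 2 Gy replicate 2.

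For the comparisons with control, 5x2 Gy minus 10 Gy and, for miR-212-3p, 5x2 Gy minus 2 Gy, the member differences that turned sign were as follows, none past the threshold unless said above; the cause was not tested. With scaling over all probes, 5x2 Gy minus control was 1.46 for miR-142a-3p and 0.76 for miR-155-5p, and 5x2 Gy minus 10 Gy was 1.08 and 0.59. There, 10 Gy minus control was 0.38 (miR-142a-3p), 0.17 (miR-155-5p) and 0.22 (miR-212-3p), and 2 Gy minus control was 0.01 for miR-212-3p. Without scaling, 5x2 Gy minus control was 1.65 (miR-142a-3p) and 0.68 (miR-155-5p), and 5x2 Gy minus 10 Gy 1.11 and 0.57. There, 10 Gy minus control was 0.54 (miR-142a-3p), 0.02 (miR-142a-5p), 0.11 (miR-155-5p) and 0.26 (miR-212-3p), and 2 Gy minus control 0.03 (miR-155-5p) and 0.21 (miR-212-3p). With the authors' deposited values, 5x2 Gy minus control was 1.25 (miR-142a-3p) and 1.5 (miR-155-5p), and 5x2 Gy minus 10 Gy 0.93 and 1.12. There, 10 Gy minus control was 0.32 (miR-142a-3p), 0.37 (miR-142a-5p), 0.38 (miR-155-5p) and 0.35 (miR-212-3p), and 2 Gy minus control 0.15 (miR-155-5p) and 0.24 (miR-212-3p). With brightness as a covariate, miR-142a-3p was 0.25 (5x2 Gy minus control), 0.21 (minus 10 Gy) and 0.04 (10 Gy minus control), miR-155-5p 0.15, 0.10 and 0.06 in that order, miR-212-3p -0.02 (5x2 Gy minus control) and miR-142a-5p -0.07 (2 Gy minus control). With slide as a block, miR-142a-3p was 0.30, 0.25 and 0.05 in the same order, and miR-212-3p -0.36 (5x2 Gy minus control), -0.05 (minus 10 Gy) and -0.23 (minus 2 Gy). Within slide 2, 5x2 Gy minus 10 Gy was 0.25 for miR-142a-3p and -0.05 for miR-212-3p, and within slide 1, 10 Gy minus control was 0.05 for miR-142a-3p. With normexp, miR-212-3p was -0.42 (5x2 Gy minus control), -0.11 (minus 10 Gy) and -0.08 (minus 2 Gy), and miR-142a-5p -0.21 (5x2 Gy minus 10 Gy) and -0.27 (2 Gy minus control). Quantile scaling gave miR-155-5p 0.01 (2 Gy minus control), 0.11 (10 Gy minus control) and 0.01 (5x2 Gy minus control), the scanner software's total signal 0.77, 1.00, 1.09 in that order and 0.09 for 5x2 Gy minus 10 Gy, a floor 4 times lower 0.11 for 5x2 Gy minus 10 Gy, and median scaling -0.03 for miR-142a-5p (2 Gy minus control). MiR-142a-5p for 5x2 Gy minus control, with a main difference of 0, had no sign to turn. It ran from -0.53 to 1.81 over 28 alternatives. Outside the members, miR-125a-5p was -0.31, -0.11 and -0.07 with normexp (5x2 Gy minus control, minus 10 Gy, minus 2 Gy) and let-7i-5p -0.03 with median scaling (5x2 Gy minus control).

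With 1 array left out, miR-142a-3p ran from -0.08 to 0.31 (2 Gy minus control), -0.30 to 0.08 (10 Gy minus control), -0.37 to -0.03 (5x2 Gy minus control) and -0.23 to 0.05 (5x2 Gy minus 10 Gy). In the same order miR-142a-5p ran from -0.09 to 0.30, -0.48 to 0, -0.20 to 0.25 and 0 to 0.39, miR-155-5p from -0.18 to 0.06, -0.11 to 0.12, -0.13 to 0.08 and -0.05 to -0.01, and miR-212-3p from -0.35 to -0.04, -0.32 to 0.01, 0.11 to 0.55 and 0.22 to 0.54. MiR-212-3p for 5x2 Gy minus 2 Gy ran from 0.24 to 0.58.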
